A study of Mus musculus with 8 samples.

Results

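The genes described here are 46 genes of the cell cycle and of DNA replication, chosen by symbol from a fixed list, out of 18088 genes with counts in RNA sequencing of differentiated 3T3-L1 adipocytes. They fall into 3 classes by role, 12 genes of G1 and of entry into S phase, 15 genes of DNA replication, and 19 genes of S/G2 and mitosis. Cells were transfected with siRNA targeting Erk3 (siERK3, 4 libraries) or with a nontargeting siRNA (siNTC, 4 libraries). Erk3, official symbol Mapk6, encodes an atypical MAP kinase that the study investigated as a regulator of lipolysis. 3T3-L1 is a single mouse preadipocyte line, labelled as wild type, that turns into fat-storing cells in culture, and here both groups had been differentiated before transfection. Both groups were detached with Accutase, transfected in suspension at 1.25 nM siRNA per cm2 on Matrigel-coated plates, and used 48 h later. Silencing was therefore transient and set in after differentiation. The labels number the replicates 1 to 4 in each group and do not say whether they were separate cultures, so a p-value here speaks only to the scatter among these samples, which may be technical.

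In a cycling cell, D-type cyclins with CDK4 and CDK6, and then E-type cyclins with CDK2, phosphorylate RB family proteins and release E2F factors, which switch on the genes of DNA replication. Replication origins are licensed by loading the MCM helicase and are fired once per cycle, after which A- and B-type cyclins with CDK1 drive mitosis and the anaphase-promoting complex ends it. Preadipocytes of this line divide during mitotic clonal expansion early in differentiation, and mature adipocytes have largely left the cycle.

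The libraries were even in depth, with 9887357 to 9943572 counts with siERK3 and 9854522 to 9920350 counts with siNTC. Mapk6 itself averaged 69.6 ± 4.80 CPM with siERK3 and 579 ± 18.1 CPM with siNTC (SD, n = 4 each), which matched the labels in all 8 libraries. Values are given in CPM, the reads of a gene per 1000000 reads of the library after scaling by TMM factors. A gene was called when edgeR's quasi-likelihood test gave it an adjusted p under 0.05 (Benjamini-Hochberg, 17972 tested genes). At that threshold 4470 genes (24.9%) were higher and 4275 genes (23.8%) were lower with siERK3, so that a call by itself was common, and the median log2 fold change over all tested genes was 0.00. Other groups of genes moved with the treatment in the same libraries. All 10 adipocyte marker genes listed were called lower, with a summed level of 17045 to 18116 CPM with siERK3 and 31170 to 33564 CPM with siNTC, and all 16 interferon-stimulated genes listed were called higher, with 4816 to 4992 CPM with siERK3 against 128 to 140.1 CPM with siNTC. Of 10 preadipocyte and fibroblast markers, 8 were called lower, Ly6a was called higher and Cd34 was not among the genes counted, and the sum was 2987 to 3107 CPM with siERK3 and 3164 to 3551 CPM with siNTC. Of 8 macrophage and leukocyte markers, Cd14 and Cd68 were called higher and Csf1r was not called, with a sum of 20.4 to 25.0 CPM with siERK3 against 9.89 to 14.5 CPM with siNTC, while Ptprc, Adgre1, Itgam, Lyz2 and Tyrobp were not among the genes counted, and of 6 endothelial markers only Pecam1 was counted and was not called. Libraries over 1 CPM are counted, here and below, by library totals without TMM factors. Every counted gene exceeded 1 CPM in at least 4 libraries. Cd68 did so in all 4 siERK3 libraries and in 1 siNTC library, so it entered through siERK3, where it is high. Its direction is not independent of that limit, nor is that of any interferon-stimulated gene near 0 with siNTC. The part of these marker and interferon shifts in the cell cycle results was not tested. In bulk RNA, fewer cycling cells and less RNA of these genes per cell cannot be told apart.

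After Erk3 silencing, the mitotic genes were mostly lower, the G1/S genes were more often higher than lower, and the replication genes lay between. Among the 12 G1/S genes, 5 were called higher (Ccnd3, E2f1, Rbl1, Ccne1 and Ccnd2), 2 were called lower (Ccnd1 and Cdk2) and 5 were not called, with a median log2 fold change of 0.12. Among the 15 replication genes, Mcm6 alone was called higher, 7 were called lower (Rrm2, Cdc6, Cdt1, Cdc45, Mcm7, Mcm2 and Mcm4) and 7 were not called, with a median of -0.21. Among the 19 mitotic genes, Cdk1 alone was called higher, 10 were called lower (Mki67, Cenpf, Ccnb1, Ttk, Bub1b, Aurkb, Cdc20, Ccna2, Top2a and Kif11), 7 were not called and Bub1 did not pass the filter on low counts, with a median of -0.58 over the 18 tested. In all, 45 of the 46 genes were tested, 7 were called higher, 19 were called lower, and the median was -0.27, beside 24.9% higher, 23.8% lower and a median of 0.00 over all tested genes. Groups that did not overlap at all were seen for 7 genes that were higher and 17 that were lower with siERK3, while over all tested genes 22.5% were higher and 20.7% were lower without overlap. No test was made of the differences between the 3 classes. The count of lower replication genes rested on single libraries, since without siERK3 replicate 1 or siNTC replicate 2 only 3 were called, without siNTC replicate 1 only 4, and with DESeq2 only 3. Ccnd1 was the 1 G1/S gene called lower without any 1 of siERK3 replicates 1 and 2 or siNTC replicates 1 and 4.

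**Figure D1:**
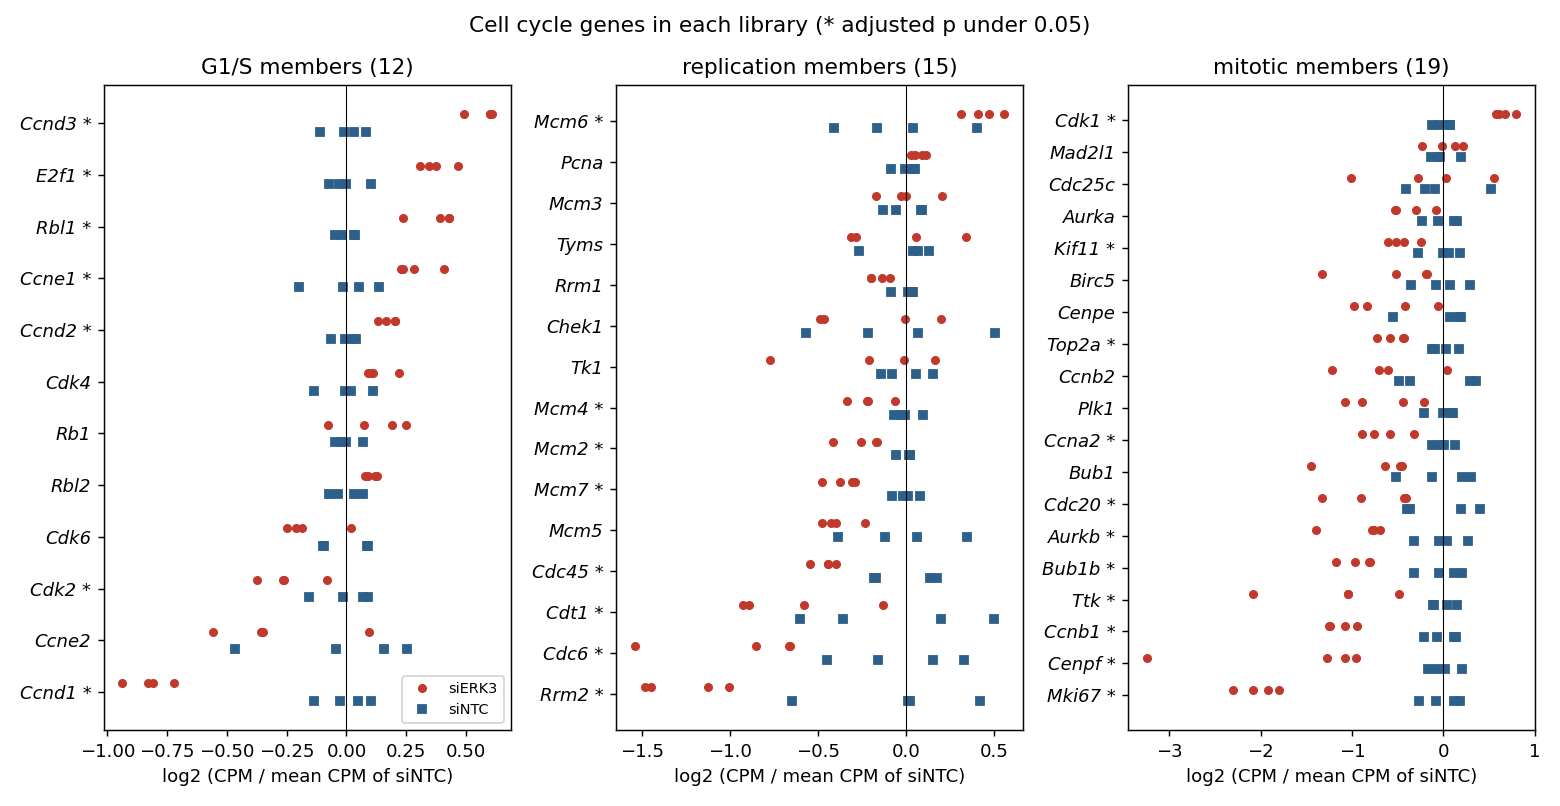
Level of each of the 46 genes in each library, as the log2 of its CPM over the mean CPM of the 4 siNTC libraries, with siERK3 libraries as circles and siNTC libraries as squares, in 3 panels by class with a separate horizontal scale in each and genes ordered by the ratio of group means. The siERK3 points lie left of the siNTC points for most mitotic genes, with Cdk1 at the top as the exception, and right of them for 6 G1/S genes.

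The direction of the calls went with the level of the gene. Of the 27 tested members with a mean under 10 CPM, 15 were called lower and 0 were called higher by edgeR, against 18.3% lower and 15.7% higher among all tested genes in that range, while of the 18 members at or above 10 CPM, 4 were called lower and 7 higher, against 26.9% lower and 30.1% higher among all tested genes in that range. All 18088 counted genes exceeded 1 CPM in at least 4 libraries, which is the size of a group, so a low gene could enter through siNTC alone. That applied to Cdc6 and Ttk, which exceeded 1 CPM in no siERK3 library and in all 4 siNTC libraries, and their lower value was fixed by their presence in the table. In all, 10 members exceeded 1 CPM in fewer than 4 siERK3 libraries, and 4 of these were called lower (Cdc6, Ttk, Aurkb and Cenpf). Without TMM factors, Cenpf exceeded 1 CPM in 1 siERK3 library and Aurkb in 3, and both did in all 4 siNTC libraries. With TMM factors, the highest Cenpf value with siERK3 was 0.966 CPM. The direction of Cenpf and Aurkb is not independent of that limit either. Restricted to the 29 members with a mean of at least 3 CPM, a limit chosen after seeing the data, 7 (24.1%) were called higher and 11 (37.9%) lower. Over all tested genes, whatever their level, 24.9% were higher and 23.8% lower, and the shares of all genes at that limit were not computed. Of the 6 mitotic genes left, 4 were called lower (Mki67, Ccna2, Top2a and Kif11).

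**Figure D2:**
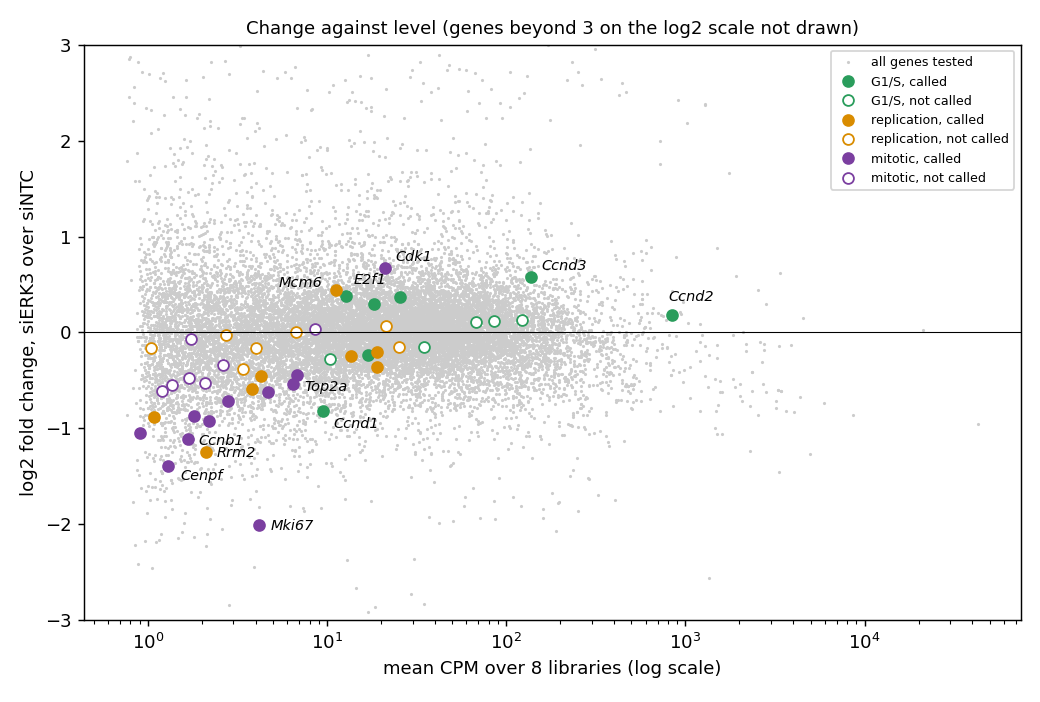
Log2 fold change of siERK3 over siNTC against the mean CPM over 8 libraries on a log scale, for all tested genes within 3 on the log2 scale (grey) and for the 45 tested members by class, filled where called. The mitotic genes sit at the low end and mostly under 0, Cdk1 and the D-type cyclins Ccnd2 and Ccnd3 lie above 0, and Mki67 is the lowest member at -2.01.

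The 3 D-type cyclins, which link growth signals to the cycle, were all called and did not move together. Ccnd1 (chr7:144929931-144939925 in mm10) was at 7.34, 6.81, 6.91 and 6.33 CPM in the siERK3 libraries, against 13.02, 11.9, 12.5 and 11.04 CPM in the siNTC libraries. Every siERK3 library was under every siNTC library, and the log2 fold change was -0.82 (SE 0.11, edgeR, adjusted p = 1.32e-06). Ccnd3 was at 154, 168, 167 and 167 CPM in the siERK3 libraries, against 102, 112, 116 and 109 CPM in the siNTC libraries. All 4 siERK3 libraries were above all siNTC libraries, although replicate 1 was lower than the other siERK3 libraries, and the change was 0.58 (SE 0.05, edgeR, adjusted p = 5.89e-09) on the log2 scale. Ccnd2 was at 890.2, 913, 869.8 and 911 CPM in the siERK3 libraries, against 815, 807, 759 and 789 CPM in the siNTC libraries. The groups did not overlap, but the shift was small, at 0.18 (SE 0.05, edgeR, adjusted p = 0.00459), and the call was lost with upper-quartile scaling (adjusted p = 0.0749). Levels and shares scaled by exon length, here and below, divide by all annotated exons of a gene. They depend on which transcripts were made, which was not measured. Scaled by exon length, Ccnd2 supplied most of the D-type cyclin RNA in both groups, with 82.6 ± 0.521% with siERK3 and 84.8 ± 0.942% with siNTC (SD, n = 4 each). Ccnd3 supplied 16.2 ± 0.549% with siERK3 and 12.6 ± 0.917% with siNTC, and Ccnd1 supplied 1.26 ± 0.0958% with siERK3 and 2.59 ± 0.186% with siNTC. Ccnd1 was thus the minor D-type cyclin of these cells and the one that was lower.

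The kinase partners of the D-type cyclins were not called. Cdk4 was at 125, 136, 126 and 127 CPM in the siERK3 libraries, against 107, 117, 127 and 119 CPM in the siNTC libraries. The groups overlapped at the top of the siNTC range, and the log2 fold change was 0.13 (SE 0.06, edgeR, adjusted p = 0.0594), which passed without siNTC replicate 3 (adjusted p = 0.0132), with library sizes only (0.00229) and with the replicate number as a block (0.0451). Exons of Cdk4 overlap those of Tspan31 over 19.7% of their length, and Tspan31 was itself called higher, at 0.44. Cdk6 was at 32.3, 31.8, 30.95 and 37.3 CPM in the siERK3 libraries, against 34.4, 39.1, 34.4 and 39.03 CPM in the siNTC libraries. Only siERK3 replicate 4 lay within the siNTC range, the log2 fold change was -0.15 (SE 0.07, edgeR, adjusted p = 0.0915), and without that library the adjusted p was 0.0246.

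Of the cyclin E and CDK2 pair that follows in late G1, the cyclin and the kinase were called in opposite directions. Ccne1 was at 21.8, 20.04, 19.3 and 19.4 CPM in the siERK3 libraries, against 17.1, 14.4, 18.1 and 16.3 CPM in the siNTC libraries, without overlap, and its log2 fold change was 0.29 (SE 0.09, edgeR, adjusted p = 0.00793). Ccne2 averaged 9.43 ± 1.91 CPM with siERK3 and 11.4 ± 2.34 CPM with siNTC (SD, n = 4 each) and was not called, at -0.27 with a 95% interval of -0.57 to 0.03. It shares 17.4% of its exon length with Ints8, which was called higher at 0.51, and it passed as lower without siERK3 replicate 4 (adjusted p = 0.0239) or without siNTC replicate 3 (0.0194). Cdk2 was at 15.3, 15.3, 17.3 and 14.1 CPM in the siERK3 libraries, against 18.1, 16.4, 19.5 and 19.2 CPM in the siNTC libraries. The ranges overlapped between siERK3 replicate 3 and siNTC replicate 2. Its log2 fold change of -0.24 (SE 0.09, edgeR, adjusted p = 0.031) lost the call without any 1 of siERK3 replicates 1, 2 and 4 or siNTC replicates 1, 3 and 4 (adjusted p 0.0509 to 0.0994), with DESeq2 (0.0709) and with library sizes only (0.165).

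The RB family and E2F1 form the switch itself. E2f1, an activating E2F, was at 15.5, 14.5, 14.2 and 13.8 CPM in the siERK3 libraries, against 10.6, 11.2, 12.003 and 10.9 CPM in the siNTC libraries. All siERK3 libraries were above all siNTC libraries, at 0.38 (SE 0.09, edgeR, adjusted p = 0.0019) on the log2 scale. Rbl1, which encodes the pocket protein p107 and is in other systems an E2F target itself, was at 29.4, 26.4, 30.1 and 30.1 CPM in the siERK3 libraries, against 22.1, 22.9, 21.6 and 22.8 CPM in the siNTC libraries, again without overlap, at 0.37 (SE 0.07, edgeR, adjusted p = 0.000173). Rb1, the retinoblastoma gene, was at 78.2, 94.1, 86.8 and 98.1 CPM in the siERK3 libraries, against 86.6, 81.1, 79.7 and 82.4 CPM in the siNTC libraries. The siERK3 libraries ranged wider than the siNTC libraries and overlapped them, and the gene was not called, at 0.11 with a 95% interval of -0.02 to 0.25, although it passed as higher without siERK3 replicate 1 (adjusted p = 0.0221). Rbl2, which encodes p130 of resting cells, averaged 70.3 ± 1.15 CPM with siERK3 and 65.4 ± 2.95 CPM with siNTC (SD, n = 4 each), with no overlap, and was not called by edgeR (log2 fold change 0.10, adjusted p = 0.113). With library sizes only, Cdk4, Rb1 and Rbl2 passed as higher as well, so that 8 G1/S genes were called higher and 1 lower.

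**Figure D3:**
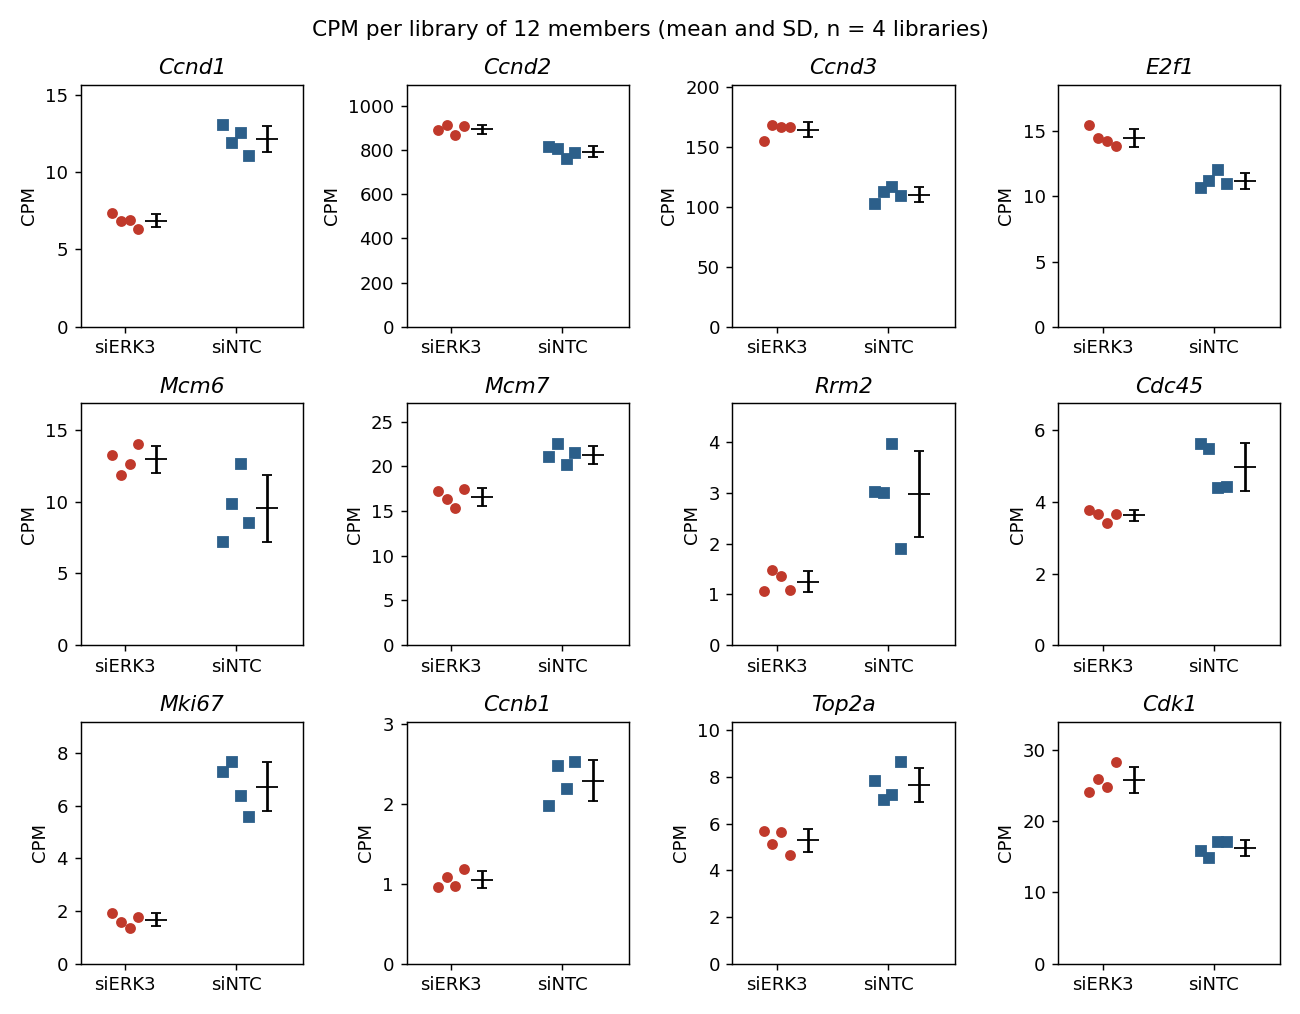
CPM of 12 members in each library, with siERK3 as circles on the left and siNTC as squares on the right of each panel, the horizontal mark and bar giving the mean and SD over 4 libraries, and every vertical axis starting at 0. Groups are apart in every panel but that of Mcm6, where siNTC replicate 3 lies among the siERK3 libraries.

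Genes of the CDK inhibitors, which hold the cyclin kinases in check, were measured beside the 46 genes. Of 8 listed, 6 were counted, 4 (66.7%) were called higher and 1 (16.7%) lower. All 6 had a mean of at least 10 CPM, and among all tested genes in that range 30.1% were higher and 26.9% lower. Cdkn2a was at 268, 235, 269.6 and 269 CPM in the siERK3 libraries, against 172, 160.4, 165 and 162 CPM in the siNTC libraries. The 2 groups were well apart, at 0.66 (SE 0.05, edgeR, adjusted p = 6.79e-10) on the log2 scale, and since this locus encodes both the CDK4/6 inhibitor INK4A and the p53 activator ARF from overlapping exons, counts per gene do not tell these products apart. Cdkn2b, the neighbouring INK4B gene, was at 69.95, 63.7, 64.4 and 61.4 CPM in the siERK3 libraries, against 40.1, 35.7, 36.9 and 40.8 CPM in the siNTC libraries, or 0.76 (SE 0.06, edgeR, adjusted p = 5.7e-10). Cdkn2c, the gene of INK4C, went the other way. It was at 249, 244, 245 and 257 CPM in the siERK3 libraries, against 349.8, 338, 375 and 384 CPM in the siNTC libraries, without overlap, at -0.54 (SE 0.05, edgeR, adjusted p = 8.22e-09). Cdkn1b, the gene of p27, averaged 88.6 ± 4.12 CPM with siERK3 and 72.7 ± 9.64 CPM with siNTC (SD, n = 4 each) and was called higher at 0.28. Cdkn1a, the gene of p21 and a classical p53 target, averaged 78.04 ± 3.56 CPM with siERK3 and 70.96 ± 2.10 CPM with siNTC (SD, n = 4 each), a small difference of 0.14 that was called (edgeR, adjusted p = 0.0408). That call was lost without any 1 of siERK3 replicates 1, 2 and 3 or siNTC replicates 1, 2 and 4 (0.0537 to 0.141), with DESeq2 (0.0817) and with upper-quartile scaling (0.325), which left 3 CDK inhibitor genes called higher. Cdkn2d averaged 12.3 ± 0.939 CPM with siERK3 and 14.2 ± 0.247 CPM with siNTC (SD, n = 4 each) and was not called (log2 fold change -0.20, edgeR, adjusted p = 0.0777). Of 12 p53 target genes listed, Cdkn1a among them, 6 (50%) were called higher and 2 (16.7%) lower, and 5 were higher where the Cdkn1a call was lost. These genes also had means of at least 10 CPM, where 30.1% of all tested genes were higher and 26.9% lower.

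**Figure D4:**
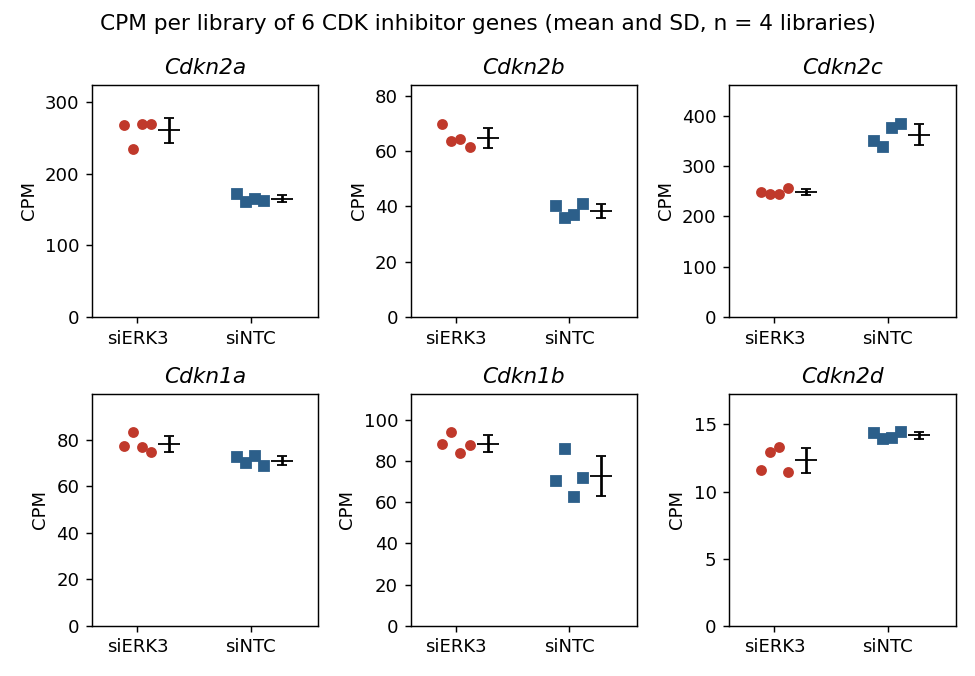
CPM of the 6 counted CDK inhibitor genes in each library, with siERK3 as circles on the left and siNTC as squares on the right, mean and SD over 4 libraries, and axes starting at 0. Cdkn2a and Cdkn2b are higher with siERK3 in all libraries, and Cdkn2c is lower with siERK3 in all libraries.

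Of the factors that regulate these genes, 14 of 16 listed were counted. Among them 1 (7.14%) was called higher and 2 (14.3%) lower, beside 24.9% higher and 23.8% lower over all tested genes. E2f3, a second activating E2F, was called higher, at 29.9, 29.7, 25.01 and 23.6 CPM with siERK3 and 22.1, 18.9, 21.5 and 19.4 CPM with siNTC (log2 fold change 0.40, SE 0.09, edgeR, adjusted p = 0.000585). Mybl2, which encodes the B-MYB protein that turns on mitotic genes, was called lower, at 1.93, 0.494, 1.46 and 1.19 CPM with siERK3 and 2.29, 2.58, 2.61 and 2.42 CPM with siNTC (log2 fold change -0.95, SE 0.27, edgeR, adjusted p = 0.00546). Its siERK3 libraries ranged widely and all lay under the siNTC libraries. Mybl2 exceeded 1 CPM in 3 siERK3 libraries and in all 4 siNTC libraries, so it could enter the table through siNTC alone. Its direction is not independent of that limit. Tfdp1, the gene of an E2F dimer partner, was called lower with a small difference of -0.17 (edgeR, adjusted p = 0.0347), and the call was lost without any 1 of siERK3 replicates 1 and 3 or siNTC replicates 3 and 4 (0.0738 to 0.104), with DESeq2 (0.0789) and with library sizes only (0.298). The other 11 were not called, Foxm1 and the counted genes of the MuvB core among them.

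Replication starts with origin licensing, in which CDC6 and CDT1 act, and both genes were called lower at low counts. Of the origin recognition genes, Orc4 and Orc2 were called higher, at 0.36 and 0.25, and Orc1, Orc3, Orc5 and Orc6 were not called. The Orc2 call was lost without siNTC replicate 3 (edgeR, adjusted p = 0.0522) and with upper-quartile scaling (0.0659). Cdc6 had 5, 9, 8 and 9 reads in the siERK3 libraries and 17, 10, 15 and 12 reads in the siNTC libraries. The groups did not overlap, and the log2 fold change was -0.88 (SE 0.30, edgeR, adjusted p = 0.0201), but the call was lost without siERK3 replicate 1 (adjusted p = 0.0696), without siNTC replicate 1 (0.0720) and with DESeq2 (0.0767). Cdt1 was at 2.42, 2.47, 4.19 and 3.07 CPM in the siERK3 libraries, against 3.02, 5.27, 6.47 and 3.58 CPM in the siNTC libraries. Here siNTC replicates 1 and 4 lay within the siERK3 range, and the call (log2 fold change -0.59, SE 0.23, edgeR, adjusted p = 0.0335) was lost without any 1 of siERK3 replicates 1, 2 and 4 or siNTC replicates 2 and 3 (0.0543 to 0.180), with limma-voom (0.0507) and with library sizes only (0.0669). The 6 MCM genes encode a helicase of 6 subunits that work together as a ring, yet their RNAs did not move together. Mcm7 was at 17.2, 16.4, 15.3 and 17.4 CPM in the siERK3 libraries, against 21.04, 22.5, 20.1 and 21.5 CPM in the siNTC libraries, without overlap, and was lower at -0.36 (SE 0.08, edgeR, adjusted p = 0.000702). Mcm6 (chr1:128331590-128359664) was at 13.2, 11.8, 12.7 and 14.04 CPM in the siERK3 libraries, against 7.19, 9.81, 12.6 and 8.52 CPM in the siNTC libraries. It was the one MCM gene called higher, at 0.44 (SE 0.13, edgeR, adjusted p = 0.00735), and siNTC replicate 3 reached the siERK3 range. Mcm2 averaged 12.5 ± 0.984 CPM with siERK3 and 14.8 ± 0.375 CPM with siNTC (SD, n = 4 each) and Mcm4 averaged 17.8 ± 1.41 CPM with siERK3 and 20.5 ± 1.0005 CPM with siNTC (SD, n = 4 each), and both were called lower by small differences of -0.25 and -0.21. The Mcm2 call was lost without any 1 of siERK3 replicates 1 and 2 or siNTC replicates 2, 3 and 4 (adjusted p 0.0507 to 0.102), with DESeq2 (0.0836) and with library sizes only (0.149). The Mcm4 call was lost without any 1 of siERK3 replicates 1, 3 and 4 or siNTC replicates 1, 2 and 4 (0.0595 to 0.145), with DESeq2 (0.103), with library sizes only (0.244) and with the replicate number as a block (0.0544). Mcm5, at -0.38 (-0.76 to 0.00), and Mcm3, at 0.01 (-0.26 to 0.27), were not called, and Mcm5 passed as lower without siNTC replicate 4 (0.0385). Scaled by exon length, Mcm6 made up 17.6 ± 1.24% of MCM RNA with siERK3 and 11.7 ± 2.52% with siNTC (SD, n = 4 each), and the shares in single libraries were 17.9, 16.1, 17.2 and 19.0% with siERK3 and 9.16, 11.9, 15.1 and 10.6% with siNTC. Mcm7 made up 23.7 ± 1.34% with siERK3 and 27.6 ± 1.56% with siNTC. The MCM sum fell in narrow ranges, 69.0 to 70.2 CPM with siERK3 and 73.5 to 79.3 CPM with siNTC.

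Cdc45, which joins the MCM ring with the GINS complex to form the active helicase, was at 3.77, 3.65, 3.41 and 3.66 CPM in the siERK3 libraries, against 5.62, 5.47, 4.38 and 4.42 CPM in the siNTC libraries. The siERK3 libraries were close to each other and all under the siNTC libraries. The log2 fold change was -0.46 (SE 0.16, edgeR, adjusted p = 0.0184), and the call was lost without siERK3 replicate 3 (adjusted p = 0.0505), siNTC replicate 1 (0.0665) or siNTC replicate 2 (0.0545), with DESeq2 (0.0640) and with library sizes only (0.0543). Of the enzymes that supply deoxynucleotides, Rrm2, the S-phase subunit of ribonucleotide reductase, changed most. It was at 1.06, 1.48, 1.36 and 1.09 CPM in the siERK3 libraries, against 3.02, 2.996, 3.97 and 1.89 CPM in the siNTC libraries. All siERK3 libraries were under all siNTC libraries, at -1.24 (SE 0.25, edgeR, adjusted p = 0.000236) on the log2 scale, the largest decrease among the replication genes. Rrm1, the constant subunit of the same enzyme, averaged 23.7 ± 0.871 CPM with siERK3 and 26.5 ± 1.03 CPM with siNTC (SD, n = 4 each) and was not called (log2 fold change -0.16, adjusted p = 0.0743 by edgeR). Its groups did not overlap, and it passed as lower without siNTC replicate 3 (0.0449). Tk1, the thymidine kinase of S phase, and Tyms, the thymidylate synthase, were not called, at -0.16 (-0.54 to 0.21) and -0.02 (-0.44 to 0.39). Pcna, the sliding clamp of the DNA polymerases, was at 21.3, 22.5, 21.6 and 22.2 CPM in the siERK3 libraries, against 21.6, 20.8, 19.6 and 21.5 CPM in the siNTC libraries. It was close to even, with an interval of -0.09 to 0.22, and shares 19.1% of its stretches of 50 bases with the counted pseudogene Pcna-ps2, so its level is uncertain. Chek1, the gene of a checkpoint kinase of stalled forks, averaged 0.978 ± 0.234 CPM with siERK3 and 1.09 ± 0.347 CPM with siNTC (SD, n = 4 each) and was not called, with a wide interval of -0.80 to 0.49.

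Of 45 other genes of origins, forks and polymerases, 42 were counted and tested, 9 (21.4%) were called higher, 9 (21.4%) were called lower and 24 were not called, with a median log2 fold change of 0.03. Both shares were near those over all tested genes, 24.9% higher and 23.8% lower. Gins3 and Gins1, subunits of the GINS complex, were called higher at 0.89 and 0.69, while the fourth subunit gene Gins4 was called lower at -0.33. Gins3 was at 15.7, 15.6, 16.3 and 15.2 CPM in the siERK3 libraries, against 8.54, 7.54, 8.87 and 8.84 CPM in the siNTC libraries, so that its groups were far apart. Rfc3, a subunit of the clamp loader, was at 12.1, 12.1, 13.5 and 10.6 CPM in the siERK3 libraries, against 6.25, 6.71, 7.51 and 5.36 CPM in the siNTC libraries, or 0.90 (SE 0.12, edgeR, adjusted p = 1.68e-06). Timeless, of the fork protection complex, was called higher at 0.55. Among those called lower were Dut, the dUTPase that keeps uracil out of DNA, at 8.21, 6.81, 8.86 and 6.33 CPM with siERK3 and 11.6, 11.6, 13.4 and 11.3 CPM with siNTC (log2 fold change -0.66, SE 0.12, edgeR, adjusted p = 7.73e-05), Prim1, the catalytic primase subunit, at -0.58, the MCM relative Mcm8, at -0.45, and Rfc4, another clamp loader subunit, at -0.45. The Mcm8 call was lost without siERK3 replicate 3 (adjusted p = 0.0554). The Rfc4 call was lost without any 1 of siERK3 replicate 1 or siNTC replicates 1, 3 and 4 (0.0536 to 0.0818), with DESeq2 (0.0587) and with library sizes only (0.0595). Rfc1, a further clamp loader subunit gene, was called lower at -0.41 (SE 0.07, edgeR, adjusted p = 5.69e-05), without overlap. It kept its call in every alternative fit, the 2-fold threshold aside. Subunit genes of 1 complex were thus called in opposite directions in GINS, in the MCM ring and in the clamp loader.

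Of the mitotic genes, Mki67 (chr7:135689784-135716361), which encodes the proliferation antigen Ki-67 of cycling cells, changed most. It was at 1.93, 1.58, 1.36 and 1.78 CPM in the siERK3 libraries, against 7.29, 7.64, 6.37 and 5.58 CPM in the siNTC libraries. The highest siERK3 library was far under the lowest siNTC library, and with siERK3 the fitted level was 0.249 times that with siNTC, a log2 fold change of -2.01 (SE 0.18, edgeR, adjusted p = 2.73e-09). Top2a, the topoisomerase that untangles replicated DNA, was at 5.70, 5.13, 5.65 and 4.65 CPM in the siERK3 libraries, against 7.81, 7.02, 7.20 and 8.63 CPM in the siNTC libraries, without overlap, at -0.53 (SE 0.13, edgeR, adjusted p = 0.00172). Of the 3 cyclin genes of this class, Ccnb1 and Ccna2 were called lower. Ccnb1, the cyclin B1 gene, was at 0.966, 1.09, 0.973 and 1.19 CPM in the siERK3 libraries, against 1.98, 2.48, 2.19 and 2.52 CPM in the siNTC libraries. Its groups did not overlap, at -1.11 (SE 0.24, edgeR, adjusted p = 0.000415), on 10, 11, 10 and 12 reads in the siERK3 libraries and 19, 24, 21 and 24 reads in the siNTC libraries, and up to 18.9% of its stretches of 50 bases recur in a pseudogene that was not counted, so its level is uncertain. Ccna2, the cyclin of S and G2, was at 4.54, 3.06, 3.80 and 3.36 CPM in the siERK3 libraries, against 5.73, 5.58, 5.22 and 6.21 CPM in the siNTC libraries, again without overlap, at -0.62 (SE 0.16, edgeR, adjusted p = 0.00209). Ccnb2, the cyclin B2 gene, and Cdc25c, a phosphatase that activates CDK1, were not called, at -0.55 (-1.17 to 0.07) and -0.07 (-0.67 to 0.53), and Ccnb2 passed as lower without siERK3 replicate 3 (adjusted p = 0.0483).

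Cdk1, the kinase that these cyclins activate, was higher. Cdk1 (chr10:69335146-69352938) was at 24.2, 25.96, 24.8 and 28.3 CPM in the siERK3 libraries, against 15.8, 14.9, 17.1 and 17.1 CPM in the siNTC libraries. The lowest siERK3 library was above the highest siNTC library, and the log2 fold change was 0.67 (SE 0.08, edgeR, adjusted p = 3.99e-07), the largest increase among the 46 genes, which kept its call in every alternative fit, though not at a 2-fold threshold. Scaled by exon length, Cdk1 had the highest level of the mitotic genes in both groups, at 5.23 RPKM with siERK3 and 3.29 RPKM with siNTC, with Cdc20 next at 1.13 RPKM with siERK3 and 1.86 RPKM with siNTC. Cdk1 shares no exon with another annotated gene. The summed level of the other 18 mitotic genes was 42.3 ± 2.73 CPM with siERK3 and 64.1 ± 1.01 CPM with siNTC, and with Cdk1 included the sum was 68.1 ± 1.34 CPM with siERK3 and 80.3 ± 0.741 CPM with siNTC (SD, n = 4 each).

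The mitotic members that act in the spindle checkpoint, at the kinetochore or spindle pole and in the chromosomal passenger complex were low, at no more than a few CPM in any library, apart from Mad2l1 and Kif11. Cenpf, a kinetochore protein of G2 and mitosis, had 10, 2, 8 and 9 reads in the siERK3 libraries and 17, 21, 16 and 18 reads in the siNTC libraries. The counts did not overlap, siERK3 replicate 2 was the lowest, and the log2 fold change was -1.39 (SE 0.31, edgeR, adjusted p = 0.000807). Ttk, the checkpoint kinase MPS1, had 3, 6, 9 and 6 reads in the siERK3 libraries and 11, 11, 13 and 12 reads in the siNTC libraries, a change of -1.04 (SE 0.33, edgeR, adjusted p = 0.0117) that was lost without siERK3 replicate 1 (adjusted p = 0.0515) and with DESeq2 (0.0534). Bub1b, which encodes the checkpoint protein BUBR1, was at 1.64, 1.28, 1.65 and 1.48 CPM in the siERK3 libraries, against 3.12, 2.79, 3.34 and 2.31 CPM in the siNTC libraries, without overlap, at -0.93 (SE 0.21, edgeR, adjusted p = 0.000974). Aurkb, the kinase of the chromosomal passenger complex, averaged 1.27 ± 0.257 CPM with siERK3 and 2.35 ± 0.390 CPM with siNTC (SD, n = 4 each) and was called lower at -0.88. Cdc20, which activates the anaphase-promoting complex, averaged 2.10 ± 0.592 CPM with siERK3 and 3.47 ± 0.967 CPM with siNTC (SD, n = 4 each). The highest siERK3 library, at 2.61 CPM, was just under the lowest siNTC library, at 2.63 CPM, and the call at -0.72 was lost without siERK3 replicate 4 (0.0563) or siNTC replicate 1 (0.0704). Kif11, the motor that separates spindle poles, was at 5.80, 5.13, 6.62 and 5.44 CPM in the siERK3 libraries, against 8.85, 8.16, 6.47 and 7.78 CPM in the siNTC libraries and was called lower at -0.44, although siERK3 replicate 3 was above siNTC replicate 3. Plk1 (the polo-like kinase of mitosis), Birc5 (the passenger protein survivin), Cenpe (a kinetochore motor) and Aurka (the spindle pole kinase) had lower means with siERK3 and were not called, at -0.61, -0.48, -0.53 and -0.34. Of these, Plk1 passed without siERK3 replicate 1 (adjusted p = 0.0446) and Cenpe without siERK3 replicate 4 (0.0272) or siNTC replicate 4 (0.0288). Mad2l1, the checkpoint protein MAD2, averaged 8.69 ± 1.16 CPM with siERK3 and 8.47 ± 0.840 CPM with siNTC (SD, n = 4 each) and was close to even, with an interval of -0.22 to 0.29 on the log2 scale. Bub1, another checkpoint kinase, had 9, 10, 10 and 5 reads in the siERK3 libraries and 15, 12, 16 and 9 reads in the siNTC libraries and was too low to be tested. Without the filter its log2 fold change was -0.70 (edgeR, adjusted p = 0.0642).

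Of 53 further genes of the spindle and of division, 46 were counted and 45 tested, and 10 (22.2%) were called lower, 3 (6.67%) were called higher and 32 were not called, with a median log2 fold change of -0.19. Over all tested genes 24.9% were called higher and 23.8% lower. Of all tested genes with a mean under 10 CPM, 15.7% were called higher and 18.3% lower, and the median level of this list was 3.27 CPM. Of its log2 fold changes, 33 were below 0 and 12 above 0. Called lower, with log2 fold changes in parentheses, were Ckap2, a microtubule protein, at 0.881 ± 0.136 CPM with siERK3 and 1.93 ± 0.168 CPM with siNTC (-1.12), Cep55, which acts in the final cut between daughter cells, at 0.979 ± 0.181 CPM with siERK3 and 2.09 ± 0.711 CPM with siNTC (-1.08), Ube2c, the ubiquitin-conjugating enzyme of the anaphase-promoting complex, at 2.25 ± 0.566 CPM with siERK3 and 4.20 ± 0.625 CPM with siNTC (-0.89), and Cenpa, the centromeric histone, at 2.25 ± 0.252 CPM with siERK3 and 4.09 ± 0.853 CPM with siNTC (-0.86). Without TMM factors, Ckap2 and Cep55 exceeded 1 CPM in 2 siERK3 libraries and in all 4 siNTC libraries. Both could therefore enter the table through siNTC alone. The 3 called higher did not resemble each other in size. Melk, which encodes a kinase usually found in dividing cells, was at 51.6, 53.1, 47.2 and 53.4 CPM in the siERK3 libraries, against 0.521, 0.516, 0.522 and 1.16 CPM in the siNTC libraries. It had 534, 538, 485 and 540 reads in the siERK3 libraries and 5, 5, 5 and 11 reads in the siNTC libraries, and the log2 fold change was 6.22 (SE 0.14, edgeR, adjusted p = 7.94e-21). Melk exceeded 1 CPM in all 4 siERK3 libraries and in only 1 siNTC library, so it entered the table through siERK3, where it is high, and its direction is not independent of that filter. The next largest increase in these lists was that of Pttg1. Pttg1 is the gene of securin, which blocks the separation of sister chromatids until anaphase. It was at 3.77, 2.96, 3.11 and 3.96 CPM with siERK3 and 1.35, 2.38, 1.67 and 1.26 CPM with siNTC (log2 fold change 1.04, SE 0.22, edgeR, adjusted p = 0.000384). Zwint, a kinetochore protein, was called higher by a small difference of 0.23.

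Sequences just before the transcription start are shown because the mitotic genes, unlike the G1/S genes, largely share 2 short motifs there, and because Cdk1 has them too. In other systems the cell cycle genes homology region (CHR) binds the MuvB complexes that repress these genes in resting cells and activate them in G2 and mitosis, CCAAT boxes bind NF-Y, and E2F sites serve genes of replication. RefSeq promoter windows on GRCm38.p6, from 250 bases before to 50 after the start, were found for 38 of the 46 genes, and a gene counts as holding a motif if any of its windows does. The CHR was searched as TTTGAA or TTCGAA, the CCAAT box as CCAAT, and the E2F site as TTTGGCGC, TTTCGCGC, TTTCCCGC or TTTGCCGC, all on both strands. Of 16 mitotic genes with a window, 12 (75.0%) held a CHR, 14 (87.5%) a CCAAT box and 1 (6.25%) an E2F site, and the same 12 held both of the first. Of 14 replication genes, 3 (21.4%) held a CHR, 9 (64.3%) a CCAAT box and 6 (42.9%) an E2F site, and of 8 G1/S genes, 1 held a CHR, 2 a CCAAT box and 2 an E2F site. Over all 32851 windows the shares were 19.2% for the CHR, 37.4% for the CCAAT box, 7.52% for both and 2.26% for the E2F site. A match describes letters in a window and was not tested as a binding site. The next sequences run 5′ to 3′ over the 200 bases before the start on the strand of the gene, with every match to a motif in capitals, and each is from RefSeq. Mki67, Top2a and Cdc20 were lower with siERK3, and Cdk1 and Mcm6 were higher.
Mki67, chr7:135716380-135716579, minus strand: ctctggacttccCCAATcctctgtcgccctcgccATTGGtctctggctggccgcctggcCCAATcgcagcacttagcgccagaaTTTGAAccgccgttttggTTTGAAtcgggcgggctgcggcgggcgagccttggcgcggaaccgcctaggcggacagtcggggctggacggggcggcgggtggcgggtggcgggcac
Top2a, chr11:99024190-99024389, minus strand: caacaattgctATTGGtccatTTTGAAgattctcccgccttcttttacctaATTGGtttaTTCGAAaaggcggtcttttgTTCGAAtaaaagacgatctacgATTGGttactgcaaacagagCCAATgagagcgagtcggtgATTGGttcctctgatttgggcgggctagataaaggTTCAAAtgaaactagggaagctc
Cdc20, chr4:118437344-118437543, minus strand: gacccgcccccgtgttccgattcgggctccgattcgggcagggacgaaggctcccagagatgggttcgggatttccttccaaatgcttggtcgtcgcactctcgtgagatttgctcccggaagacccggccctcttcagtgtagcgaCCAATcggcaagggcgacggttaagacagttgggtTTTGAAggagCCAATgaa
Cdk1, chr10:69352913-69353112, minus strand: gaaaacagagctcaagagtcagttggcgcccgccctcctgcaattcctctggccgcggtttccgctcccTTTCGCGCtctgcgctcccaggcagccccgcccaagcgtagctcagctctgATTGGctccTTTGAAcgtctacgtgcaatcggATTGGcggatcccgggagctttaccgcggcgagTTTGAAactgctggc
Mcm6, chr1:128359706-128359905, minus strand: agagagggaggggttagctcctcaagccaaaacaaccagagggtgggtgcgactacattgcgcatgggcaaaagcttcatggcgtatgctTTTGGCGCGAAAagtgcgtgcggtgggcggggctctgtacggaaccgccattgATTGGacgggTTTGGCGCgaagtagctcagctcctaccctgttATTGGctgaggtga

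In Mki67 the capitals mark 3 CCAAT boxes, 1 of them on the other strand, and 2 CHR matches. In Cdk1 they mark an E2F site, 2 CCAAT boxes on the other strand, and 2 CHR matches that begin 71 and 15 bases before the start. The promoter of the mitotic gene that rose therefore held CHR and CCAAT letters, as did most of those of the mitotic genes that fell. Of the 8 mitotic genes called lower that had a window, 7 held both, and of the other 8 mitotic genes with a window, Cdk1 among them, 5 held both. In Mcm6 the first run of capitals is 2 overlapping E2F matches on opposite strands, followed by a CCAAT box, a further E2F site and another CCAAT box. Among the 15 genes called lower that had a window, in any class, 10 held a CHR and 4 an E2F site, and among the 6 called higher, 1 held a CHR and 3 an E2F site. Among the 16 tested genes that were not called and had a window, 4 held a CHR and 2 an E2F site. Mitotic genes were 8 of the 15 called lower, so class and direction cannot be told apart in these counts over all classes.

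Several members share sequence with other genes, and the library kit does not mark strand, so reads from overlapping genes cannot be told apart. Ccnd1 shares 23.4% of its exon length with LTO1, which was not called (0.14), Ccna2 shares 12.5% with Exosc9, which was not called (0.16), and Mcm7 shares 7.25% with Ap4m1, which was called lower (-0.24). Ccnd3 shares 4.11% with Bysl, which was called higher (0.32). Ccnd2 shares 3.95% with Gm43126, called higher (0.32), and 3.91% with 9330179D12Rik, called lower (-0.69). Cdc45 shares 5.96% with Ufd1, which was not called and averaged 74.2 CPM with siERK3 and 74.6 CPM with siNTC. Of uncalled members, Rb1 shares 6.78% with Lpar6, called higher (0.93), and Plk1 shares sequence with the pseudogene Plk-ps1, called lower (-0.70). Further overlaps are not named here. Of Mcm7, 16.5% of stretches of 50 bases recur in the pseudogene Gm5487, and of Cdc20, 10.3% recur in the counted pseudogene Gm7856. Over the whole list, 17 of the 26 called genes kept their call in every alternative fit that tested them, the 2-fold threshold aside. These were 6 that were higher (Ccnd3, Ccne1, E2f1, Rbl1, Mcm6 and Cdk1) and 11 that were lower (Ccnd1, Mcm7, Rrm2, Mki67, Ccnb1, Cenpf, Bub1b, Aurkb, Ccna2, Top2a and Kif11). All fits used the same counted genes, and Cenpf and Aurkb could be among these through siNTC alone. For these 2 genes a kept call adds no support for the direction. Ccnb1 exceeded 1 CPM in all 4 siERK3 libraries without TMM factors, but on 10 to 12 reads, so it too sits close to that limit.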

How the data were processed

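The authors deposited raw counts of reads per gene for 8 libraries of poly(A) RNA. The submitters' notes list Bowtie2, edgeR, FastQC and bcl2fastq, with mm10 as the build. The counting program, annotation and strand setting are not given in the sources used here. Every gene in the deposited table is above 1 CPM, by library totals without TMM factors, in at least 4 libraries. A second deposited table holds the authors' log2 fold changes, average log2 CPM, p-values and adjusted p-values, and was not used.

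Samples were grouped by their labels. The 46 genes, their classes and the other gene lists were chosen with earlier results of these data known. Counts were fitted with edgeR 4.0.16 in R 4.3.3 (quasi-likelihood test without covariate, TMM factors, siNTC as reference). Its filterByExpr step, set to at least 10 counts and 15 in total, left 17972 genes, and the threshold for a call was 0.05 after Benjamini-Hochberg adjustment. The biological coefficient of variation was 6.08%. CPM are per library size (9854522 to 9943572 counts) scaled by its TMM factor, and intervals are 95% intervals of the fit. RPKM (CPM per kilobase) and shares scaled by exon length use the joined length of all GENCODE exons of a gene. A gene whose expressed transcripts are shorter than that length gets too low a value. Coordinates (mm10) and overlaps were also taken from GENCODE. The table gives no symbol for 452 genes. In simulated counts for this comparison over 17770 tested genes, 38% of genes changed 1.25-fold were called, 80% at 1.5-fold, 92% at 2-fold and 96% at 4-fold (50 genes each), and 11 of 164 called genes were unchanged ones. Replicates of a group differed beyond counting noise (chi-square per gene 1.97 to 8.30 over 12 pairs).

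Alternatives were DESeq2 1.42.0, RLE, upper-quartile or no scaling factors, no filter or at least 5 CPM in 4 libraries, edgeR's likelihood-ratio test, limma-voom (limma 3.58.1), the replicate number as a block, each library left out, and a 2-fold threshold. A limit of 3 CPM on the mean was added after seeing the data. Values per library are given for Mki67, Top2a, Ccnb1, Cdk1, the D-type cyclins, Cdk4, Cdk6, Pcna and Rb1 and, in each class, for up to 4 called genes per direction with the largest change, and other genes of the pathway are named by up to 4 called genes per direction and list. Gins4 and Rfc1 are named as further subunits of complexes described, and the Orc genes as further genes of licensing. Others are named as members of the list.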

Additional observations from a re-analysis of the deposited data

Results flagged for a closer look

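In 4 of 92 groups of 4 libraries (46 genes in 2 groups), 1 library stood further from the rest than Dixon's 95% limit, while chance flags about 1 in 20 groups. Ccnd3 was at 154 CPM in siERK3 replicate 1, against 167 to 168 CPM in the other siERK3 libraries. Cdk4 was at 136 CPM in siERK3 replicate 2, against 125 to 127 CPM in the others of that group. Aurkb was at 0.890 CPM in siERK3 replicate 4, against 1.36 to 1.45 CPM in the others. Mcm2 was at 14.3 CPM in siNTC replicate 1, against 14.98 to 15.04 CPM in the other siNTC libraries.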

How the results depend on the processing

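No called member changed direction under the 17 alternatives to the fit. Of the 26 called members, 9 lost the call under at least 1 of them and 17 kept it, and 10 uncalled members passed under at least 1. Scaling moved the median of all genes by at most 0.086 on the log2 scale. With at least 5 CPM in 4 libraries, 25 members were tested, 9 were called lower, of them 3 replication and 4 mitotic genes, and 13 genes of the 4 further cell cycle lists. DESeq2 called 1 G1/S gene and 3 replication genes lower, and lost the calls of Cdkn1a, Tfdp1, Rfc4, Pole (adjusted p = 0.122) and Kif20b (0.124) in the further lists, and library sizes only called 8 G1/S genes higher, 1 lower and 3 replication genes lower. A mean of at least 3 CPM left 11 members called lower, 4 of them mitotic. At 2-fold, 738 of all genes were higher and 409 lower, no member was higher (0) and 5 were lower, of them 0 G1/S, 1 replication and 4 mitotic genes, and 2 genes of the further lists were higher and 2 lower. Leaving out 1 library gave 14 to 19 members lower, with 1 to 3 G1/S and 3 to 6 replication genes, the fewest replication genes without siERK3 replicate 1 or siNTC replicate 2. Of uncalled genes, the log2 fold change turned for Mcm3 with 5 CPM (-0.0034) and upper-quartile factors (-0.063), Pcna (-0.00057) and Mad2l1 (-0.034) with upper-quartile factors, and Tyms (0.062) and Cdc25c (0.016) with library sizes only. With 1 library left out it ranged over both signs, from -0.063 to 0.062 for Mcm3, -0.169 to 0.064 for Tyms, -0.306 to 0.056 for Chek1, -0.350 to 0.157 for Cdc25c and -0.030 to 0.119 for Mad2l1. The cause was not tested.

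Deviations of same-numbered libraries correlated at 0.0647, 0.0699, 0.237 and -0.0203 for replicates 1 to 4, so the numbers were not taken to pair the samples. With the replicate number as a block, 8 members were called higher and 18 lower, Mcm4 lost its call (adjusted p = 0.0544) and Cdk4 passed (0.0451). At counts near the filter minimum of 10 reads per library, as for Cdc6, Ttk and Bub1, depth limits what can be called.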
